A study of Saccharomyces cerevisiae with 9 samples.

Results

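The salt response of a budding yeast strain without the regulatory subunits of protein kinase CK2 was compared here, gene by gene and class by class, with that of wild type handled beside it. The strain, ckb12, is BY4741 with CKB1 and CKB2 deleted and came from another laboratory, and wild type (WT) is BY4741. Cells were grown in YPD at 30°C in shaken batch culture, and on each array labelled cDNA of cells taken 30 min after addition of 0.7 M NaCl was hybridised together with that of unstressed cells of the strain. The comparison used 4 of the 9 arrays in the series, namely ckb12 replicate 1 with WT replicate 8 (set A) and ckb12 replicate 2 with WT replicate 9 (set B). The other 5 WT arrays entered no paired difference. They showed how far cultures of 1 strain differ, joined the paired WT arrays in a second comparison of ckb12 with all 7, and gave the WT response by which genes were ordered. Members were the features with names of nuclear open reading frames (ORFs), 6672 of 6942 features, of which 6356 had a value on all 4 arrays and 5902 on all 9.

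CK2 is a protein kinase made of catalytic subunits, encoded in yeast by CKA1 and CKA2, and of regulatory subunits, encoded by CKB1 and CKB2. It phosphorylates many nuclear proteins, among them factors of RNA polymerases I and III, and in yeast it joins Utp22, Rrp7 and Ifh1 in a complex that links early ribosome assembly to ribosomal protein (RP) genes. Under osmotic stress yeast represses the genes for ribosome assembly and for RPs while it induces stress proteins and glycerol synthesis. The values were log2 ratios, NaCl over unstressed, relative to the median feature of an array, so a gene repressed by salt has a negative value. A strain difference was ckb12 minus WT within a set, on the log2 scale. A negative difference means stronger repression or weaker induction in ckb12. Since each ratio is taken within 1 strain, a change in the salt response and a change in the level before stress cannot be told apart, nor can a smaller share of cells that express a gene and less RNA per cell.

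Whether the transcript response of ckb12 differs from that of WT was tested first across all features. Because ckb12 came from another laboratory, effects of the deletions and of other differences between the strains cannot be told apart. In the paired limma fit with the set as a block, 1 ORF passed a Benjamini-Hochberg adjusted p of 0.05 (0.0157% of 6356 ORFs, 0.0152% of 6600 features), and 1059 had an unadjusted p under 0.05. Against all 7 WT arrays, limma called 68 ORFs (1.15% of 5902), 22 higher (0.373%) and 46 lower in ckb12 (0.779%). The paired count rested on the features fitted, because a fit of the ORFs alone called 573 (9.02%), 205 higher (3.23%) and 368 lower (5.79%). The 244 other features had differences that correlated between sets at r = -0.37, against 0.47 across ORFs (Spearman's rho 0.47), and their SD was 0.834 in set A and 0.806 in set B, against 0.407 and 0.428 for ORFs. Genes are not independent replicates, and the correlations describe these arrays only. Both sets shared a sign for 4129 ORFs (65%), 1674 of them higher (26.3%) and 2455 lower in ckb12 (38.6%). A difference of at least 1.5-fold in each set was reached by 302 ORFs (4.75%), 113 higher (1.78%) and 189 lower (2.97%). After quantile normalization these were 133 higher and 119 lower. Both ckb12 arrays lay above all 7 WT arrays for 5.52% of 5902 ORFs and below them for 12.4%. The median ORF difference was -0.06 for set A, and for set B it was -0.03. Without either ckb12 array the fit against all WT called no ORF, although 634 (without ckb12 replicate 1) and 423 (without ckb12 replicate 2) had an unadjusted p under 0.05, and without WT replicate 12 it called 139.

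Of 53 functional classes, 8 differed the same way in both sets, by the rule that both class medians share a sign and at least 70% of measured members have that sign in both sets. The 4 lower classes were the small subunit processome, the 60S assembly factors, cell separation genes and RNA polymerase II. The 4 higher classes were the phosphate regulon, the RPs of both subunits and the histones. The classes nearest to the threshold from inside were the phosphate regulon and RNA polymerase II, each with 75.0% of members on 1 side. The nearest from outside were RNA polymerase I, amino acid permeases and inositol and phospholipid synthesis, each with 66.7%. These classes were not tested as sets, and their counts are read against the shares of all ORFs given above.

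**Figure D1:**
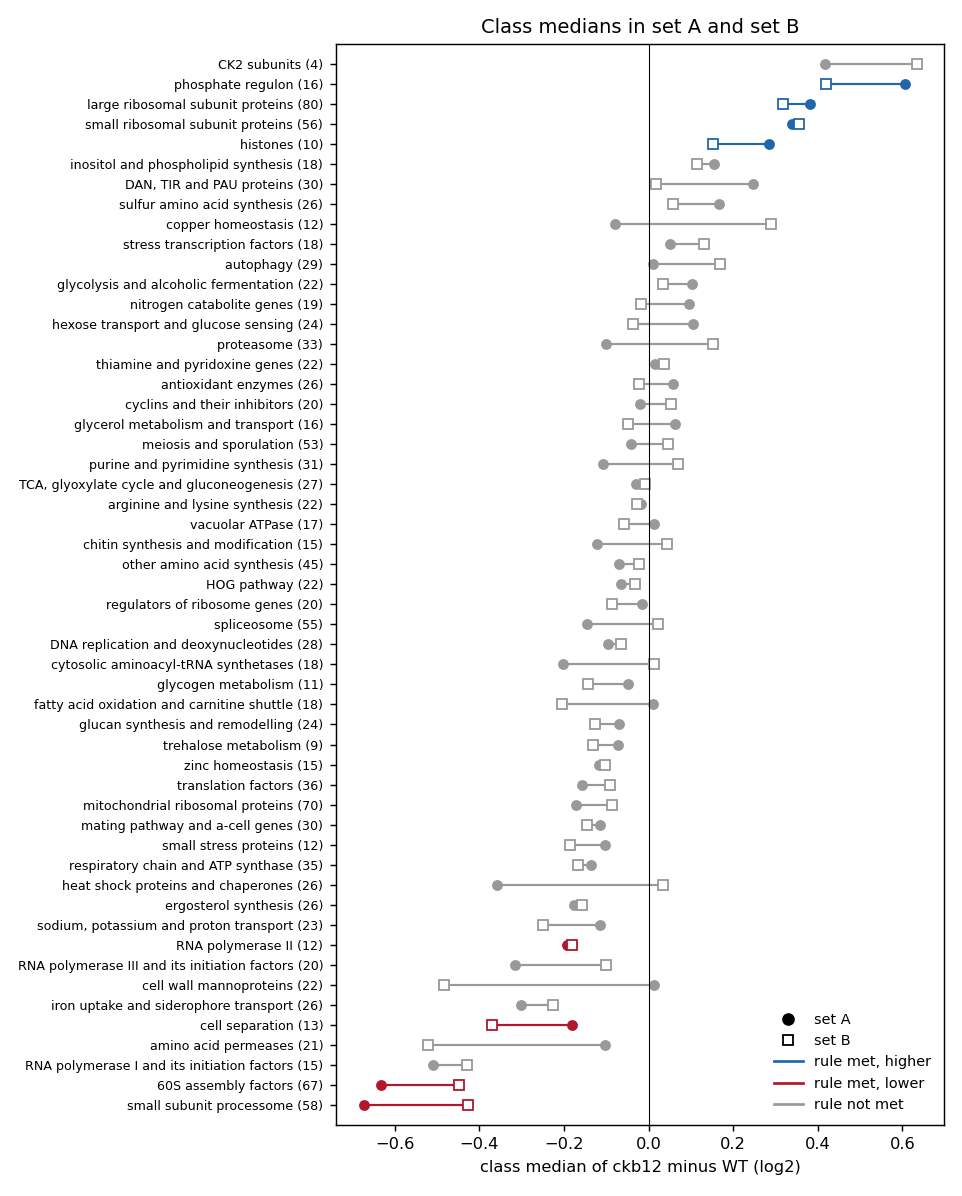
Median ckb12 minus WT difference (log2, x axis) of each of 53 gene classes, with the number of measured members in brackets; filled circles are set A and open squares set B. The processome and 60S assembly factors lie lowest in set A, at -0.67 and -0.63, amino acid permeases lie lowest in set B, at -0.52, and the phosphate regulon and RP classes lie between 0.32 and 0.61.

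The small subunit processome, the large particle that folds and cleaves the precursor of the small subunit rRNA, was repressed by salt in both strains and had lower values in ckb12. Its class median was -2.38 in WT and -3.08 in ckb12 in set A, and -2.60 in WT and -2.97 in ckb12 in set B. Over the 7 WT arrays the class median had a lowest value of -2.82, a middle value of -2.43 and a highest of -2.21, so both ckb12 arrays lay below every WT array. The median difference of the members was -0.67 for set A, and for set B it was -0.43. Of 58 members 53 were lower in both sets (91.4%), 2 were higher and 12 were lower by at least 1.5-fold in each set. For 34 of the 58, no WT array was as low as either ckb12 array.

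RRP36 (YOR287C), a factor of early cleavage, read -2.22 in WT and -3.18 in ckb12 in set A, and -2.11 and -3.05 in set B, and overlapped WT through WT replicate 12 at -3.06. PWP2 (YCR057C), a scaffold protein of the UTP-B complex, read -2.76 and -3.82 in set A, and -2.99 and -3.80 in set B. Its WT arrays ran from -3.36 to -2.49 with a median of -2.78, so the strains did not overlap. The mean paired difference of PWP2 was -0.93 (SE 0.15, n = 2 sets, adjusted p 0.119), and against all 7 WT arrays it was -0.96 (SE 0.19, adjusted p 0.0427; limma with Benjamini-Hochberg). ENP1, which also acts in export of the small subunit, differed by -0.97 and -0.89, and NOP1, the methyltransferase of the box C/D particles, by -0.80 and -0.90. UTP11 differed by -0.93 and -0.74, but its ckb12 values lay within the WT range.

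The members that went the other way were UTP22 and ESF1. UTP22 (YGR090W), the processome protein that binds CK2 and Rrp7, read -0.93 in WT and -0.92 in ckb12 in set A, and -1.01 and -0.83 in set B. The WT arrays for UTP22 ran from -1.08 to -0.84, and the strains overlapped. RRP7, its partner, differed by -0.11 in both sets, and IFH1, the RP gene activator held in the same complex, by -0.38 and -0.17. None of these 3 genes passed in any of the limma fits with Benjamini-Hochberg adjustment. ESF1 differed by 0.12 and 0.50.

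The 60S assembly factors, which build the large subunit from its rRNA precursor in the nucleolus and escort it to the cytoplasm, showed the same direction with fewer exceptions. Their class median was -2.52 in WT and -3.30 in ckb12 in set A, and -2.64 in WT and -3.31 in ckb12 in set B. The WT arrays held class medians from -2.98 to -2.32, with -2.64 in the middle, and both ckb12 arrays were below them all. The median difference was -0.63 for set A and -0.45 for set B, and 65 of 67 members were lower in both sets (97.0%). The 2 others, NOP7 and REA1, had opposite signs in the sets. At least 1.5-fold in both sets was reached by 20 of the 67, all lower.

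RSA4 (YCR072C), which the AAA protein Rea1 pulls from the maturing large subunit, had the largest mean difference of the class. It read -2.36 in WT and -3.42 in ckb12 in set A, and -2.62 and -3.65 in set B, while the WT arrays ran from -2.67 to -2.17 with a median of -2.34. The strains did not overlap, and its difference from all 7 WT arrays was -1.17 (limma, SE 0.17, Benjamini-Hochberg adjusted p 0.0164). NIP7, needed for processing of the large subunit rRNA, differed by -0.78 and -1.09 and also lay below all WT arrays. RLP24 differed by -1.11 and -0.83, NOP15 by -0.93 and -0.98 and CIC1 by -0.84 and -0.81, and for these 3 genes the lowest WT array, replicate 12, was lower than at least 1 of the ckb12 arrays. For all 4 genes named here beside RSA4, the paired WT arrays were higher than ckb12.

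Genes for RNA polymerase I, which transcribes the large rRNA precursor, leaned the same way but did not reach the 70% rule. Of 15 subunits and initiation factors, 10 were lower in both sets and none higher, with medians of -0.51 and -0.43. The class median was -0.95 in WT and -1.19 in ckb12 in set A, and -1.16 and -1.32 in set B, within the WT range of -1.55 to -0.95. RPA43 (YOR340C), the subunit that binds the initiation factor Rrn3, read -3.44 in WT and -4.64 in ckb12 in set A, and -3.80 and -4.73 in set B, below the WT range of -4.10 to -3.04. RPA49 differed by -1.07 and -0.75, and the largest subunit, RPA190, by -0.73 and -0.46. RRN6 and RRN11, of the core factor, differed by -0.43 and -0.36 and by -0.86 and -0.43, whereas RRN9 and RRN10, of the upstream activating factor, differed by -0.02 and 0.15 and by -0.05 and 0.30. RPA190 was the only member called against all 7 WT arrays (-0.74, adjusted p 0.0427, limma with Benjamini-Hochberg). These named genes were chosen after their values were seen. The RNA polymerase III class had medians of -0.31 and -0.10, with 11 of 20 members lower and 3 higher in both sets.

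The processome, the 60S factors and RNA polymerase I together gave 34 of the 189 ORFs that were at least 1.5-fold lower (18.0%), whereas they make up 2.20% of measured ORFs. After quantile normalization they gave 2 of 119 such ORFs (1.68%), and at equal spread of the arrays 3 of 155 (1.94%), so that share was no longer above theirs of all ORFs. TOD6 (YBL054W), a repressor of ribosome assembly genes, was itself lower in ckb12. It read -3.07 in WT and -4.14 in ckb12 in set A, and -3.35 and -4.17 in set B, below all WT arrays (-3.40 to -2.82). Against all 7 WT arrays TOD6 differed by -0.93 (adjusted p 0.0238, limma with Benjamini-Hochberg), and it was named after its values were seen. The list of 20 regulators that holds it had 8 members lower and 6 higher in both sets.

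The size of this difference depended on how the spread of the arrays was treated. The median absolute deviation of the arrays was 0.888 and 0.885 for the paired WT, 0.951 and 0.994 for ckb12 and 1.07 for WT replicate 12, the highest of all. After quantile normalization the processome medians were -0.26 and -0.10, with 37 of 58 members lower in both sets, and the 60S medians were -0.30 and -0.13, with 46 of 67. When arrays were scaled to equal spread the medians were -0.47 and -0.11 for the processome and -0.49 and -0.14 for the 60S factors. Both medians of both classes stayed negative under each of these scalings, but the 70% rule was no longer met. Whether both ckb12 arrays would still lie below every WT array under these scalings was not tested. Centring each array on its ORF median left the rule met, with 53 of 58 and 65 of 67 members lower in both sets.

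RPs were also repressed by salt in both strains, but their difference had the opposite sign. The small subunit class read -2.23 in WT and -1.83 in ckb12 in set A, and -1.96 and -1.64 in set B. The large subunit class read -2.19 and -1.78 in set A, and -1.97 and -1.68 in set B. Over the WT arrays the class medians ran from -2.45 to -1.86 for the small and from -2.40 to -1.86 for the large subunit. Both ckb12 arrays were above every WT array, although the highest WT array, at -1.86, came close to ckb12 replicate 1 in both classes. Members of the small subunit class were higher in both sets for 52 of 56 genes (92.9%), with medians of 0.34 and 0.36. In the large subunit class 68 of 80 measured genes were higher in both sets (85.0%), with medians of 0.38 and 0.32, and none was lower in both.

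Only RPS21B reached 1.5-fold in both sets, but 10 RP genes did so after quantile normalization and 21 at equal spread. RPS7B was the only RP called against all 7 WT arrays. RPS7B (YNL096C), a small subunit protein, read -2.07 in WT and -1.49 in ckb12 in set A, and -2.17 and -1.42 in set B. Its WT arrays ran from -2.41 to -1.92, and its difference from all WT was 0.70 (limma, SE 0.14, Benjamini-Hochberg adjusted p 0.0400). The other named members, RPS19A, RPS6A, RPS1B, RPL13A, RPL21B, RPL32 and RPL6A, differed by 0.44 to 0.67 in each set, and all but RPS6A lay above the WT arrays. RPL16A differed by 0.83 and 0.53, while its paralogue RPL16B differed by 0.12 and 0.35. RPS28B was the only small subunit gene lower in both sets, by -0.15 and -0.22, and RPP2A, a stalk protein, had the most opposed values at 0.98 and -1.05. Most RP genes exist as near-identical pairs, and how the array tiles separated such pairs is not given in the sources used here, so values of single paralogues are uncertain. Unlike the assembly factors, the RP classes moved further from WT after quantile normalization and at equal spread. The means of the 2 set medians were 0.48 and 0.46 after quantile normalization and 0.53 for both at equal spread. Centring each array on its ORF median gave 0.34 for both.

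**Figure D2:**
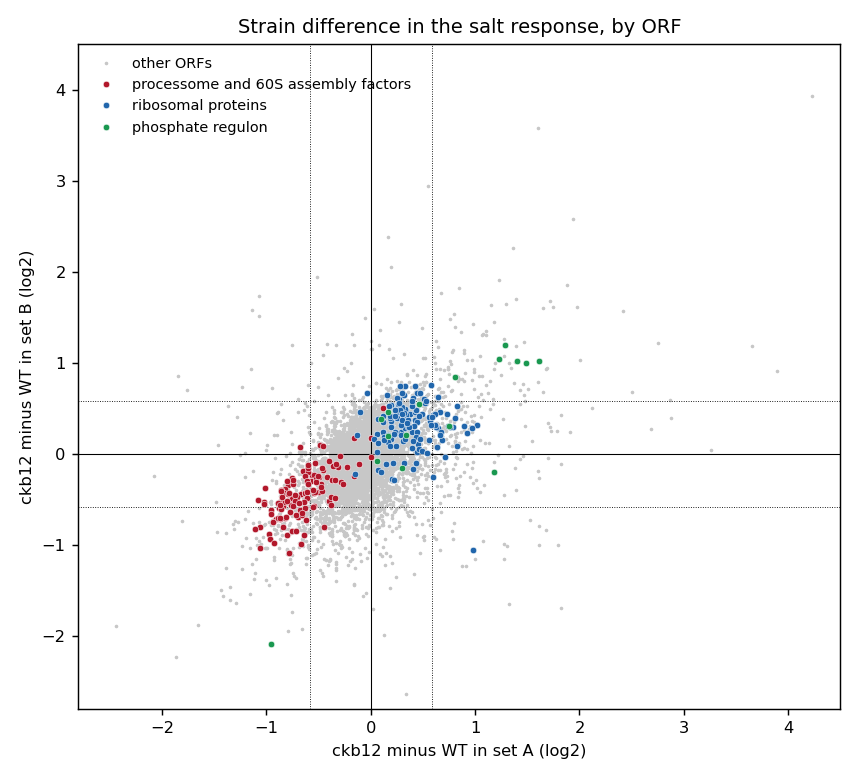
Each point is 1 ORF, placed by its ckb12 minus WT difference (log2) in set A (x axis) and set B (y axis); dotted lines mark 1.5-fold, and 2 ORFs lie outside the axes. Processome and 60S factors fill the lower left quadrant, RPs the upper right, and most phosphate genes lie at the upper right with PHO84 (-0.95, -2.09) at the lower left.

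The genes were next ordered by their response in WT, taken as the mean of the 5 WT arrays outside sets A and B, which do not enter the differences. The 55 ORFs repressed below -3 had median differences of -0.68 in set A and -0.49 in set B, and 49 of them were lower in both sets. The 300 ORFs between -3 and -2 differed by -0.29 and -0.19, and without RPs the remaining 212 differed by -0.54 and -0.34. ORFs within 1 of 0 on the log2 scale (4126) differed by -0.07 and -0.00. For induced ORFs the values as deposited gave medians of 0.11 and -0.00 between 2 and 3 and of 0.20 and -0.13 in the 34 ORFs above 5. Without the ribosome and translation classes, the 26 ORFs below -3 still differed by -0.58 and -0.37, and 21 of them were lower in both sets. Quantile normalization brought the mean of the 2 medians below -3 from -0.58 to -0.07, and equal spread to -0.24. Between -3 and -2 that mean was -0.24 as deposited, 0.02 after quantile normalization and -0.0089 at equal spread. At equal spread the differences lay among the induced ORFs, at -0.17 between 2 and 3, -0.44 between 3 and 5 and -0.58 above 5, where the deposited values gave 0.06, -0.08 and 0.04 and quantile normalization 0.06, -0.02 and 0.08. Which part of the response differed, and not its size alone, thus depended on the scale of the arrays.

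**Figure D3:**
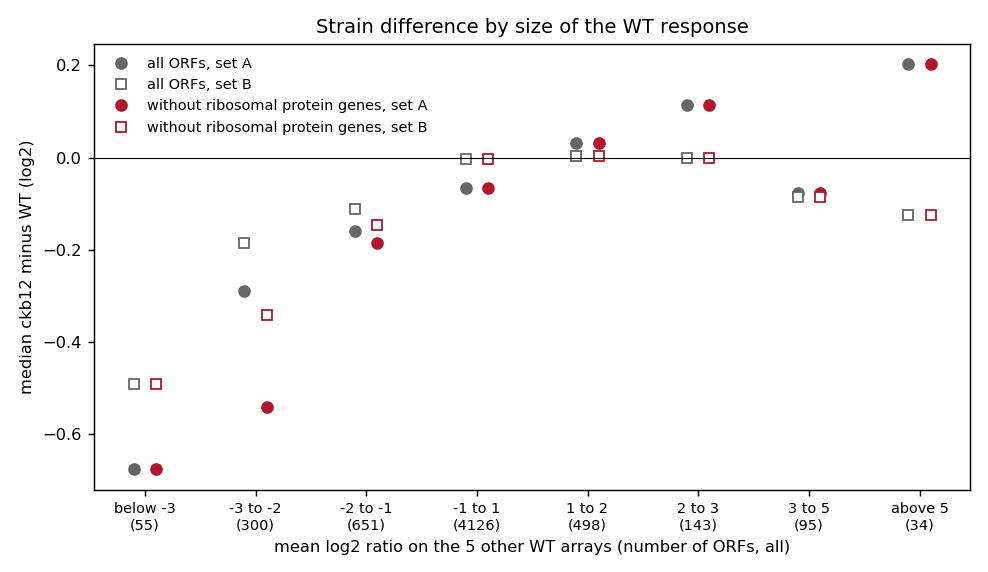
Median ckb12 minus WT difference (log2, y axis) of ORFs grouped by their mean log2 ratio on the 5 other WT arrays (x axis, number of ORFs in brackets); circles are set A, squares set B, grey all ORFs and red ORFs without RPs. Differences are most negative for the 55 ORFs below -3 and near 0 for ORFs between -1 and 5.

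The phosphate regulon, the genes that yeast uses to take up, free and store phosphate, had the highest medians of the classes that met the rule. The class median was -2.40 in WT and -1.86 in ckb12 in set A, and -2.14 in WT and -1.88 in ckb12 in set B. Both ckb12 arrays were above the WT range of -2.68 to -2.14. Of 16 genes 12 were higher in both sets, 6 of them by at least 1.5-fold, and 1 was lower, with medians of 0.61 and 0.42. Against all 7 WT arrays 4 of the 16 were called higher, where the background of all ORFs was 0.373%.

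Among the phosphatases, PHO8 (YDR481C), which encodes the vacuolar alkaline phosphatase, read -1.01 in WT and 0.28 in ckb12 in set A, and -0.96 and 0.24 in set B. It was repressed on all 7 WT arrays (-1.32 to -0.82, median -1.09) and above 0 on both ckb12 arrays, with a difference from all WT of 1.37 (limma, SE 0.16, Benjamini-Hochberg adjusted p 0.0113). PHO5, the main secreted acid phosphatase, differed by 0.80 and 0.85. PHO11 and PHO12, which also encode acid phosphatases, differed by 1.23 and 1.04 and by 1.41 and 1.02. Their coding sequences are nearly identical, so how far their values are separate is uncertain. All 3 acid phosphatase genes lay above their WT arrays, and PHO11 and PHO12 were called against them (adjusted p 0.0233 and 0.0172, limma with Benjamini-Hochberg). PHO3, the constitutive acid phosphatase, differed by 0.34 and 0.21 and overlapped WT.

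PHO84 (YML123C), the high-affinity phosphate transporter, went against the class, with -3.90 in WT and -4.85 in ckb12 in set A, and -3.25 and -5.34 in set B. The paired WT arrays of PHO84 were among the higher of the 7, which ran from -4.97 to -3.25 with a median of -4.30, and ckb12 replicate 1 lay within that range. PHO89, the sodium-coupled phosphate transporter, read -2.02 in WT and -0.53 in ckb12 in set A, and -1.48 and -0.48 in set B, and it too overlapped the WT range, which reached -0.38. Among the polyphosphate synthesis genes VTC1 differed by 0.75 and 0.31 and VTC3 by 0.46 and 0.55, both above all WT arrays, while VTC2 and VTC4 overlapped WT. PHM6 (YDR281C), of unknown function, read -3.85 and -2.23 in set A and -3.69 and -2.67 in set B, above its WT range of -4.37 to -3.69, and was called against all WT (adjusted p 0.0130, limma with Benjamini-Hochberg). PHO81, the inhibitor of the Pho80-Pho85 kinase at the head of the pathway, differed by 0.06 and -0.08. Both class medians were higher under quantile normalization, at 0.81 and 0.55, and at equal spread, at 0.78 and 0.55.

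**Figure D4:**
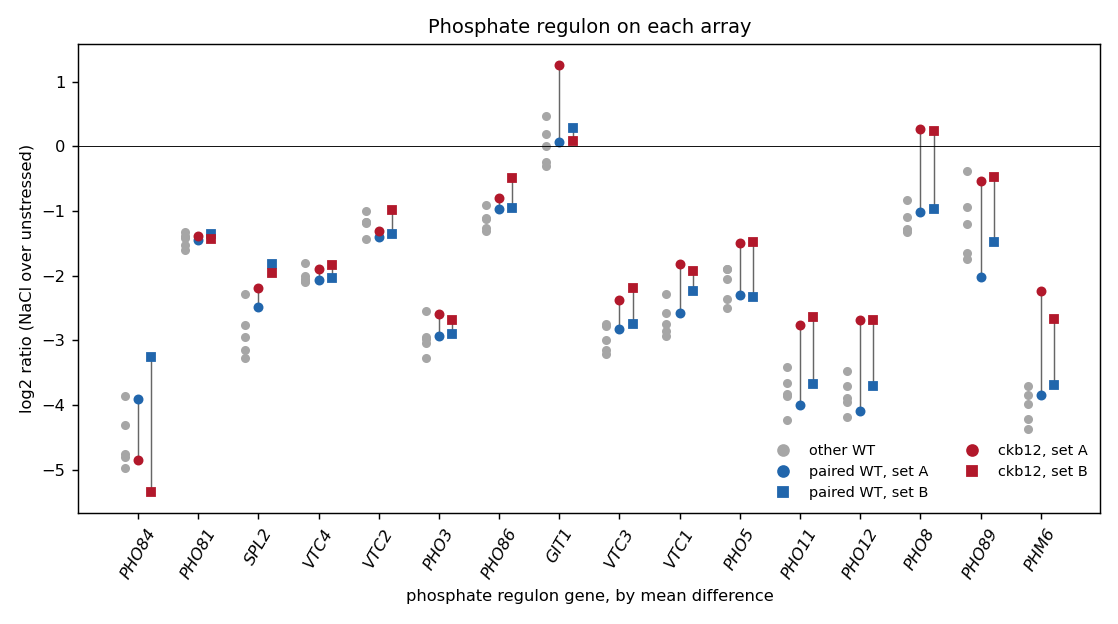
Log2 ratio of NaCl over unstressed signal (y axis) of 16 phosphate regulon genes on the 9 arrays; lines join the WT and ckb12 arrays of a set, and grey points are the 5 other WT arrays. ckb12 values of PHO8, PHM6, PHO11, PHO12 and PHO5 lie above every WT array, and those of PHO84 lie below their paired WT.

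The histones were the remaining higher class. Their median read -0.99 in WT and -0.59 in ckb12 in set A, and -0.73 and -0.44 in set B, against -1.14 to -0.59 over the WT arrays, whose highest array nearly touched ckb12. Leaving out WT replicate 11 or 12 in the comparison with all WT ended the rule for this class. Of 10 genes 8 were higher in both sets, with medians of 0.29 and 0.15. HTA1, for histone H2A, differed by 0.76 and 0.36, HHT1, for H3, by 0.30 and 0.59, and HHF1, for H4, by 0.49 and 0.37, and HTB1, for H2B, by 0.36 and 0.17. HHO1, the linker histone, was lower, by -0.11 and -0.09, and its paired mean turned to 0.01 after quantile normalization and 0.04 at equal spread. No histone gene passed a limma fit with Benjamini-Hochberg adjustment. HHT1 and HHT2, and HHF1 and HHF2, encode the same proteins, and their values are uncertain for the same reason as those of RP pairs.

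Cell separation genes and RNA polymerase II were lower in both sets, but their ckb12 values lay inside the WT range. The cell separation median, of genes that daughter cells express to dissolve the septum, was -0.92 in WT and -1.11 in ckb12 in set A, and -0.91 and -1.35 in set B. The 5 other WT arrays all read between -1.49 and -1.14, below both paired WT arrays. Of 13 genes 11 were lower in both sets, led by SCW11, a glucanase, at -0.42 and -0.75 and DSE2 at -0.39 and -0.61, with PRY3 at -0.37 and -0.63, AMN1 at -0.29 and -0.37 and DSE1 at -0.29 and -0.26. ASH1, the daughter repressor of HO, differed by 0.08 and 0.09. The RNA polymerase II subunits were lower in both sets for 9 of 12 genes, with medians of -0.19 and -0.18. Their median was -0.54 in WT and -0.71 in ckb12 in set A, and -0.52 and -0.65 in set B, within the WT range of -0.92 to -0.52. RPB10 and RPO26, which differed by -0.51 and -0.53 and by -0.37 and -0.36, encode subunits shared by the nuclear RNA polymerases, as do RPB5 (-0.25 and -0.24) and RPC10 (-0.20 and -0.23). RPO21, the largest subunit, differed by -0.27 and -0.46. RPB4 (0.08 and 0.07) and RPB3 (0.03 and 0.30) were higher. Measured from the mean of all 7 WT arrays, neither class met the rule, with medians of -0.04 for cell separation and -0.00 for RNA polymerase II. With single arrays left out of that comparison, the RNA polymerase II median turned as high as 0.07 and the cell separation median 0.04.

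**Figure D5:**
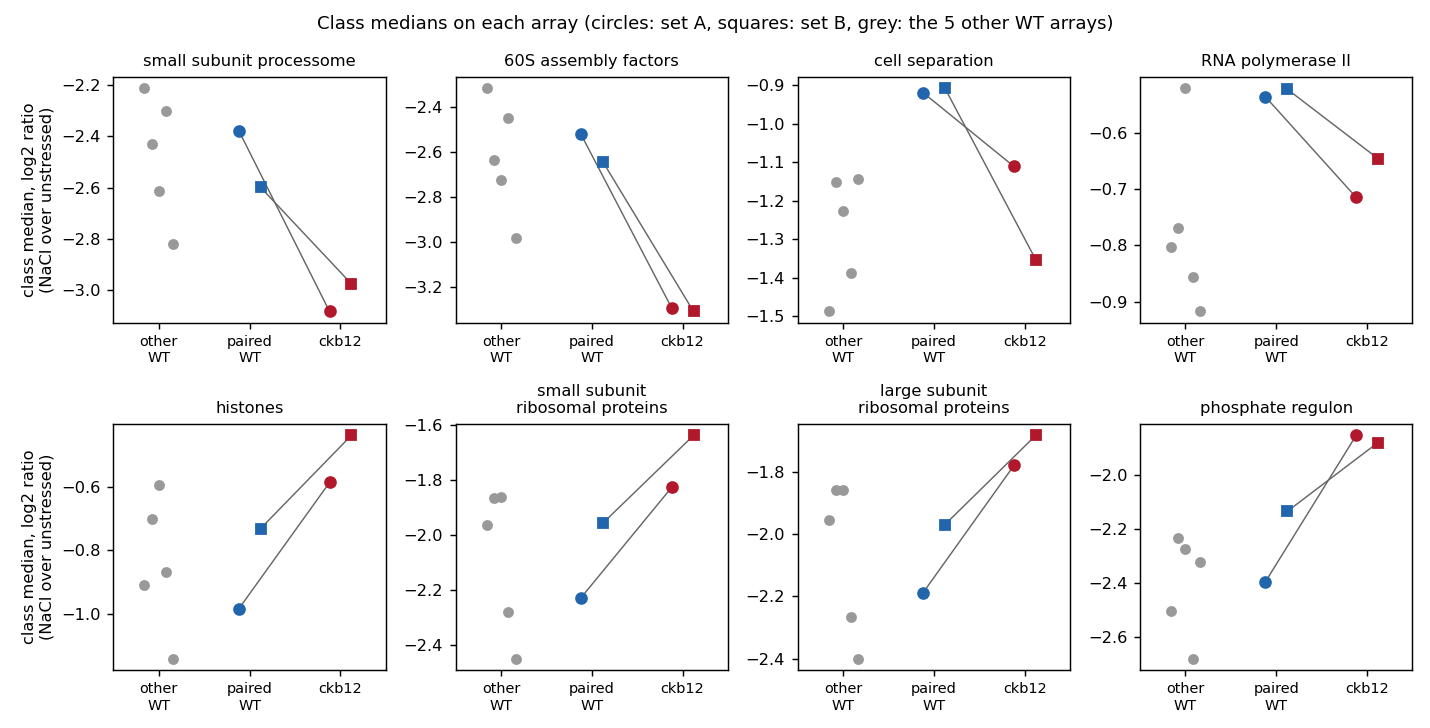
Class median of the log2 ratio on each array (y axis, a scale of its own in each panel) for the 8 classes that met the rule; lines join WT and ckb12 of a set, circles are set A and squares set B. ckb12 lies outside all 7 WT arrays in 6 classes and inside their range for cell separation and RNA polymerase II.

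Among single genes the largest decrease was in HSP12 (YFL014W), which encodes a small membrane-associated stress protein. HSP12 read 7.84 in WT and 5.40 in ckb12 in set A, and 8.21 and 6.32 in set B. Every WT array lay between 7.84 and 9.36, with a median of 8.51, so induction was weaker on both ckb12 arrays than on any WT array. The paired difference was -2.17 (SE 0.19, n = 2 sets, adjusted p 0.0752) and that from all WT was -2.59 (SE 0.34, adjusted p 0.0130; limma with Benjamini-Hochberg). RTC3 read 7.61 and 6.26 in set A, and 7.54 and 5.93 in set B, against WT values of 7.54 to 8.88. DDR2, a DNA damage and stress response gene, differed by -1.31 and -0.83, and both RTC3 and DDR2 were called against all WT (adjusted p 0.0208 and 0.0456, limma with Benjamini-Hochberg).

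The small stress proteins had no common direction as a class. Of 12 members 6 were lower and 2 higher in both sets. GRE1, a hydrophilin, read 6.44 in WT and 7.61 in ckb12 in set A, and 6.51 and 7.11 in set B, above all WT arrays. At equal spread the mean of the set medians moved from -0.14 to -0.73, and no member was then higher in both sets. GPD1 (YDL022W), the first enzyme of glycerol synthesis, read 4.86 and 4.34 in set A and 4.83 and 4.21 in set B, below the WT range of 4.78 to 5.95, at a paired difference of -0.57 (limma, SE 0.15, Benjamini-Hochberg adjusted p 0.180). The glycerol class as a whole split into 6 higher and 5 lower of 16, with GPP2, the second enzyme, at 0.52 and 1.05. ENA1, the sodium pump, differed by -0.18 and -0.60, and its near copies ENA2 and ENA5 by -0.34 and -0.46 and by -0.25 and -0.55. In the class of sodium, potassium and proton transport, 15 of 23 members were lower and 4 higher in both sets. The HOG pathway, which signals osmotic stress, had medians of -0.06 and -0.03.

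Several genes of meiosis and spore formation, which haploid cells do not undergo, were among the lowest single differences, although their class had no common direction. RIM4 (YHL024W), an RNA-binding regulator of meiosis, read 1.55 in WT and 0.12 in ckb12 in set A, and 1.56 and 0.07 in set B. Its WT arrays ran from 1.35 to 2.13, with no overlap, and its difference from all WT was -1.55 (limma, SE 0.20, Benjamini-Hochberg adjusted p 0.0113). GAS2, a glucan-remodelling enzyme of the spore wall, read 0.94 and -0.47 in set A, and 0.90 and -0.66 in set B, also below all WT arrays. REC102, a recombination protein, differed by -1.10 and -1.15, SPO21 by -0.94 and -0.78 and SPS1, a sporulation kinase, by -0.91 and -0.88. SPO21 and SPS1 were named after their values were seen. All 5 genes were called against all WT (limma, Benjamini-Hochberg), which follows in part from how they were picked. Of the 41 class members with values on all 9 arrays, 5 were called lower, against 0.779% of all ORFs. Of the 53 meiosis and sporulation genes 7 were at least 1.5-fold lower in both sets and none was 1.5-fold higher. Over all ORFs those shares were 2.97% lower and 1.78% higher. The chitin deacetylase genes CDA1 and CDA2, described below and at least 1.5-fold higher in both sets, were not in this list. Of its members 18 were higher and 19 lower in both sets, with medians of -0.04 and 0.05.

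The only ORF called in the paired fit was CDA2 (YLR308W), a chitin deacetylase of the spore wall, and its value depended on which WT arrays it was set against. It read -2.64 in WT and 1.58 in ckb12 in set A, and -3.12 and 0.80 in set B, 4.08 higher in the pairs (limma, SE 0.16, Benjamini-Hochberg adjusted p 0.0129). WT replicate 10 read -2.20, but WT replicates 1, 2, 11 and 12 read 0.81, 1.24, 0.54 and 0.99. The ckb12 arrays thus lay close to these 4 WT arrays and far from the other 3. CDA1, the other chitin deacetylase, differed by 1.46 and 0.77. MATALPHA1, whose sequence a MATa strain keeps only at a silent locus, and BSC1 also differed from their paired WT, by -1.14 and -1.21 and by -1.39 and -1.25, within the range of the other WT arrays.

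Further single genes were higher on both ckb12 arrays than on all WT arrays. DIA3 (YDL024C), which acts in invasive growth, read 6.17 and 6.07 in ckb12, against a WT range of 3.05 to 4.99 with a median of 4.43, and differed by 1.72 and 1.67. DAN1, a cell wall mannoprotein of anaerobic growth, read -2.03 and -0.05 in set A, and -2.12 and -0.51 in set B. IZH4, a membrane protein tied to zinc homeostasis, read -0.99 and 0.40, and -0.93 and 0.77. These 3 genes passed against all WT, with differences of 1.84, 1.56 and 1.75 (adjusted p 0.0456, 0.0233 and 0.0393, limma with Benjamini-Hochberg). ICL2, the mitochondrial 2-methylisocitrate lyase, the zinc cluster gene RDS1, AAD10 and MAN2 differed by 0.78 to 1.68 in each set and were called as well. MAN2 has a near-identical copy, DSF1, and their signals may be shared. TDA1, a protein kinase gene, differed by 1.04 and 1.07 and lay above all WT arrays without a call.

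On the lower side HRP1 (YOL123W), a subunit of the mRNA cleavage factor, was close to 0 in WT and negative in ckb12. It read -0.02 and -1.25 in set A, and -0.16 and -1.17 in set B, and its WT arrays ran from -0.23 to 0.36. Against all WT it differed by -1.24 (limma, SE 0.16, Benjamini-Hochberg adjusted p 0.0113). ARG3, of arginine synthesis, read 2.02 and 0.90, and 1.93 and 0.56, below the WT range of 1.25 to 2.34 (adjusted p 0.0663 against all WT, limma with Benjamini-Hochberg). The near-identical maltose permease genes MPH2 and MPH3 differed by -1.11 and -1.30 and by -0.98 and -1.44. ATC1 differed by -1.09 and -1.01. The uncharacterised ORFs YHR007C-A and YLR342W-A were called lower, by -1.68 and -1.33 against all WT, and YHR214C-E higher, by 1.60. By its name YLR342W-A adjoins GAS2 (mean paired differences -1.47 and -1.49), and YHR214C-E adjoins PHO12 (1.39 and 1.21). Whether the signals of such neighbours are separate was not tested.

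Of 26 iron genes 16 were lower and 4 higher in both sets, with medians of -0.30 and -0.23. The high-affinity iron permease FTR1 read -0.94 in WT and -1.76 in ckb12 in set A, and -1.24 and -2.18 in set B, below all WT arrays. Its partner oxidase FET3 differed by -0.71 and -0.60 and the siderophore transporter ARN1 by -0.62 and -0.87. SIT1, another siderophore transporter, read 0.92 in WT and -0.14 in ckb12 in set A, and 0.92 and -0.08 in set B, below all WT arrays. In the other direction FIT1, a cell wall mannoprotein that retains siderophores, read 1.93 and 3.40, and 1.86 and 3.09, but on WT replicates 1 and 2 it was at -1.38 and -0.99, and the lowest and highest WT arrays were thus further apart than ckb12 and its paired WT. The metallothionein genes CUP1-1 and CRS5 differed by 0.98 and 1.43 and by 0.74 and 0.93, both above all WT arrays, and CUP1-2, a copy of CUP1-1 whose signal may be shared, by 0.78 and 1.12. The copper transporter gene CTR1 differed by -1.20 and -0.26. ZRT1, the zinc transporter, differed by -0.24 and 0.02. FTR1, FET3, SIT1, ARN1, CUP1-1, CUP1-2, CRS5 and CTR1 were named after their values were seen, and none of them passed the paired fit of all features or the fit against all WT.

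Of 26 sulfur amino acid genes 14 were higher and 7 lower in both sets. STR3, of methionine synthesis, differed by 1.68 and 0.94, and MET16, of sulfate reduction, by 1.07 and 0.59, whereas SAM2, which makes S-adenosylmethionine, differed by -0.52 and -0.71. MET16 and SAM2 were called against all WT in opposite directions, at 0.90 and -0.58 (adjusted p 0.0476 and 0.0456, limma with Benjamini-Hochberg). GCV2 and GCV3, of the glycine cleavage complex, differed by 1.10 and 0.75 and by 0.67 and 0.63, and ADE17, of purine synthesis, by 0.89 and 1.14. INO1, of inositol synthesis, differed by -0.08 and -0.19, although 12 of the 18 measured inositol and phospholipid genes were higher in both sets. These genes other than INO1 were chosen after their values were seen.

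Many classes showed no common direction. The proteasome had medians of -0.10 and 0.15, copper genes -0.08 and 0.29, and heat shock proteins and chaperones -0.36 and 0.03, so sets A and B differed in sign. Against the mean of all 7 WT arrays, however, heat shock proteins and chaperones met the 70% rule as a lower class. In set A alone 22 classes met a 70% rule and in set B alone 17. The 8 classes described above are among both by definition, because the rule for both sets includes that for each. RNA polymerase I and ergosterol synthesis, lower in each set alone, also met the rule in both single sets but with too few members in common. The mating pathway and a-cell genes had 14 of 30 members lower and 3 higher in both sets. The a-cell markers MFA1, MFA2, STE2, AGA2 and BAR1 were measured on all arrays and their ratios overlapped between strains. Of the alpha-cell markers STE3 and MF(ALPHA)2 overlapped too, but MF(ALPHA)1 read 0.10 and -0.20 in ckb12. That was below its 6 WT values, 0.19 to 1.27. Ratios give no level, so mating type was not checked.

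The deleted genes had to be read as ratios as well, which carry no information on whether a transcript is present. CKB1 (YGL019W) read -0.38 in WT and 0.97 in ckb12 in set A, and -0.50 and 0.44 in set B, and CKB2 (YOR039W) read -0.16 and 0.82, and -0.10 and 0.71. Both lay above all WT arrays and were called against them (adjusted p 0.0164 and 0.0206, limma with Benjamini-Hochberg). GET1, which adjoins CKB1, was called as well (adjusted p 0.0208, limma with Benjamini-Hochberg). The deleted genes and GET1 thus count among the 22 ORFs called higher against all WT and the 113 at least 1.5-fold higher. Of the neighbours of CKB1, GET1 differed by 0.99 and 0.90 and JAC1 by -0.26 and 0.07. Of those of CKB2, GLO4 differed by -0.44 and -0.75 and HIR2 by 0.00 and 0.02. The catalytic genes CKA1 and CKA2 had opposite signs in the sets, at -0.14 and 0.45 and at -0.16 and 0.32.

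Position along the chromosome was read from the ORF numbers. Among the last 10 ORF numbers of each arm, 345 ORFs were measured, of which 4.93% were at least 1.5-fold higher and 5.80% at least 1.5-fold lower in both sets, against 1.60% and 2.81% of the other 6011. Their median was -0.04 in set A and -0.24 in set B, against -0.06 and -0.02 elsewhere. The difference in these shares was not tested. Of the 302 ORFs at 1.5-fold or more in both sets, 72 had no match in the RefSeq annotation, 40 of them higher and 32 lower.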

How the data were processed

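RNA of 9 yeast cultures was measured, 7 WT and 2 ckb12, with 1 array each. The authors made labelled cDNA, put the treated and unstressed cDNA on 1 tiled NimbleGen array in 2 colours, and normalized the result. The values they deposited are log2 ratios, a column for each array. The log2 scale and the direction come from the study's methods, legends and labels and do not stand in the table. The merging of tiles, background correction and the filter behind blank values are not given in the sources used here. Dye orientation, per the methods, varied for some samples and was kept within pairs. Arrays held between 6205 and 6812 values, intensities were not used here, and precision is limited by the number of arrays. The methods speak of variation between days for paired samples, CK2 mutants among them, when they describe a rescaling for plots; whether the deposited values hold it, and which arrays shared a day, is not given in the sources used here. The p-values measure the spread between these arrays.

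Tests used R 4.3.3 with limma 3.58.1 (lmFit, eBayes) on the deposited values, with a Benjamini-Hochberg adjusted p below 0.05 as a call. The paired fit took the set letter as a block (1 residual degree of freedom, 6600 features), and the second fit compared ckb12 with all 7 WT arrays. Pairs came from the set letters. Deviations of same-set arrays correlated at -0.0433 over all features and 0.178 over ORFs, and the consensus correlation within sets was 0.177. WT replicate 12 has the word mutant in 1 label field but a WT title and genotype, and was kept as WT. Fits were tested on simulated data with independent noise and no set effect, only for the direction and mean error of the simulated differences.

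Symbols came from a RefSeq table (assembly R64), which matched 5996 of the 6672 ORF names; no coordinates or sequences are given because the design's genome build is not given in the sources used here. Class lists were written from general knowledge (1425 of 1427 listed names matched, 1410 distinct genes), RPs by symbol. Members, lists and classes were chosen with earlier results of these data known. Genes were named as the 12 highest and 12 lowest differences by the smaller of the sets, up to 10 calls each way, the CK2 subunits, up to 5 members with and 3 against each class that met the rule, and GPD1, ENA1, HSP12, INO1, PHO84 and ZRT1; all others were picked with their values known. As alternatives served other features in the fit, no block or a random block, 3 normalizations, robust moderation, a q value, missing values, a size condition, the study's 2 SD rule, 2-fold, the mean of all WT as reference, single sets and leaving out arrays.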

Additional observations from a re-analysis of the deposited data

Results flagged for a closer look

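Of 90 sets of 7 WT values, for single named genes and class medians, 8 held 1 array far from the others by Dixon's test at the 95% level, where chance gives about 1 in 20. WT replicate 12 was that array for 7 of them, with values of -4.51 for NOP15 (WT median -2.82), -3.06 for RRP36 (-2.12), -3.44 for UTP11 (-2.21), -3.59 for CIC1 (-2.41), -2.16 for RPB5 (-1.41), -0.98 for RPB4 (0.05) and 3.45 for INO1 (2.63). WT replicate 2 was that array for DIA3, with 3.05 against a WT median of 4.43. WT replicate 12 enters none of the paired differences. It sets the overlap of NOP15, RRP36, UTP11 and CIC1 with ckb12, and it also had the widest spread of all arrays.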

How the results depend on the processing

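Over the 4 paired arrays the count of 1 called ORF became 573 with ORFs alone in the fit, 173 with robust moderation and 93 with the set as a random block on 9 arrays. It was 0 after centring on the ORF median (1035 at an unadjusted p under 0.05, limma), and with no replicate block, the unpaired fit of the same arrays, it was also 0 (999 at an unadjusted p under 0.05, limma). It stayed at 1 under quantile normalization, equal spread, a q value, missing values and a size condition. Leaving out 1 of the 4 paired arrays leaves no residual degrees of freedom and was not run. Against all WT the 68 calls became 45 after quantile normalization, 44 at equal spread and 460 by the 2 SD rule, and 0 to 139 with 1 array left out: 0 without either ckb12 array, 24 without WT replicate 8, 36 without WT replicate 1, 42 without WT replicate 11, 43 without WT replicate 9 and 139 without WT replicate 12. With the set as a random block on the 9 arrays, the fit of ckb12 against all 7 WT arrays called 93. The 302 ORFs at 1.5-fold became 57 at 2-fold. The count of classes that met the rule, 8 as deposited, was 22 in set A alone and 17 in set B alone. After quantile normalization it was 4, all higher and all among the 8. At equal spread it was 5, of which 4 were among the 8 and trehalose metabolism, lower, was new. Against the mean of all 7 WT arrays it was 10, with 6 of the 8. The new ones, all lower, were RNA polymerase III, aminoacyl-tRNA synthetases, heat shock proteins and chaperones, and trehalose metabolism. With 1 array left out of that comparison the count was 9 to 23, with 5 to 7 of the 8. The 2 highest counts, 20 and 23, rest on 1 ckb12 array. The median of ORFs repressed below -3 moved from -0.58 to -0.0708 after quantile normalization and to -0.24 at equal spread. Among named genes in the paired fits, signs reversed for HHO1, to 0.00655 after quantile normalization and 0.0383 at equal spread. In the random-block fit against all 7 WT arrays, ZRT1 differed by 0.11 and RPC10 by 0.0155. Without the block these 2 genes differed from all WT by 0.16 and 0.07, whereas their paired means were -0.11 and -0.22. Against all WT, the class median turned positive for RNA polymerase II without WT replicate 8, 9 or 10 or ckb12 replicate 1 (to 0.07 at most), for cell separation without ckb12 replicate 2 (0.04) and for small stress proteins without WT replicate 2 or ckb12 replicate 1 (to 0.02 at most).

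The 4 arrays give 1 residual degree of freedom, so a single gene is judged mostly by the spread of the other features. Array intensities were not used, and low signals could not be weighed.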

Other observations

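Among classes that missed the 70% rule, some had class medians on both ckb12 arrays outside all 7 WT arrays. The median of sodium, potassium and proton transport genes was 0.22 on both ckb12 arrays and 0.30 to 0.99 in WT, and 1 member, PMA2, a proton pump gene, was lower by at least 1.5-fold in both sets (-0.66 and -0.93). Heat shock proteins and chaperones read -0.54 and -0.37 against -0.33 to 0.11, with the Hsp70 gene SSA4 lower by -1.29 and -0.74 and the Hsp40 gene YDJ1 by -0.96 and -0.53. YDJ1 was called against all WT (-0.76, adjusted p 0.0230, limma with Benjamini-Hochberg), and SSA4 was not. Glucan synthesis and remodelling read -0.17 and -0.22 against -0.16 to 0.18, where SCW10 differed by -0.77 and -0.62. Glycogen genes read 3.04 and 2.88 against 3.12 to 3.84, but GLG2, a glycogenin, read 1.33 and 1.77 in ckb12 against 0.72 and 0.77 in the paired WT. RNA polymerase III read -1.51 and -1.35 against -1.34 to -0.87. The median of zinc genes, at -0.48 and -0.32 against -0.92 to -0.51, lay above WT. That of copper genes, at 0.48 and 0.55 against -1.10 to 0.13, did so too. Within the pairs, however, the median differences of zinc genes were -0.12 and -0.10, with 7 of 15 lower and 3 higher in both sets. Those of copper genes were -0.08 and 0.29, with 5 of 12 higher and 4 lower in both sets. These classes were picked for their position outside WT, so no test is given.

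Of the 159 lower ORFs at 1.5-fold with values on the 5 other WT arrays, 78 fell by at least 2-fold in the mean of those arrays, 34 rose and 47 stayed within 2-fold. Of the 70 higher ones 22 fell, 13 rose and 35 stayed within 2-fold. Among all 5902 ORFs with values on the 9 arrays, 4126 stayed within 2-fold on those 5 arrays. The groups that fell held 55 (below -3), 300 (-3 to -2) and 651 (-2 to -1). The groups that rose held 498 (1 to 2), 143 (2 to 3), 95 (3 to 5) and 34 (above 5). These counts are of the deposited values only.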
